A study of Mus musculus with 15 samples.

Results

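The 9 genes examined here encode receptors through which growth factors act on blood-forming cells, namely Kit, Flt3, Csf1r, Epor, Csf3r, Csf2ra, Il3ra, Csf2rb and Csf2rb2. They were chosen by name, from 45706 genes listed by Ensembl identifier, and all 9 were listed and passed the filter on low counts, beside 18983 genes tested in all. RNA came from lineage-negative (lin-) cells, enriched with magnetic beads from the femoral bone marrow of secondary recipients, and was sequenced after poly(A) selection. The groups were WT (n = 3), Puma-/- (n = 4), G3 mTerc-/-Puma+/+ (n = 4) and libraries labelled G3 mTerc-/-Puma-/- (n = 4). Puma (gene symbol Bbc3) encodes a pro-apoptotic BH3-only protein, mTerc (Terc) the RNA template of telomerase, and G3 marks third-generation offspring, in which telomeres have shortened. The deletions were present in every donor cell and all donors were C57BL/6J mice expressing CD45.2. All groups shared the same history, since LSK stem and progenitor cells had passed serially through 2 lethally irradiated CD45.1+ hosts. The methods describe no sort for CD45.2 before RNA extraction, so that remaining host cells cannot be told apart from donor cells in these values. The comparison asks how the telomerase and Puma genotypes, alone and together, bear on receptor mRNA in progenitors.

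Haematopoietic growth factor receptors fall into a few structural classes. Kit, Flt3 and Csf1r are receptor tyrosine kinases, whose own kinase domain is activated when the ligand joins 2 receptor chains. Epor and Csf3r are single-chain cytokine receptors without a kinase of their own, and they signal through bound JAK kinases and STAT factors. Csf2ra and Il3ra bind GM-CSF and IL-3, respectively, and signal only with a beta chain, which is Csf2rb for both and, in the mouse, also Csf2rb2 for IL-3. In marrow, Kit marks stem cells, early progenitors and mast cells, Flt3 lymphoid-primed and dendritic progenitors, Epor erythroid progenitors, Csf1r monocytic cells and Csf3r granulocytic cells.

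Totals ran from 102790519 to 158367059 counts per library, and Epor, the lowest receptor per length, rested on 260 to 1290 counts in each of 14 libraries. In the group labelled G3 mTerc-/-Puma-/-, replicate 2 stood apart from all others and is not drawn in the heatmaps of the study. The methods of the study state that no data were excluded. Here that library is left out of the values below unless 15 libraries are named. Terc had 0 or 1 counts in every mTerc-/- library and at least 4 in the others. Bbc3 went against 1 label: its level was 15.4 ± 1.80 normalized CPM (counts scaled to a common TMM-adjusted library size) in the libraries labelled G3 mTerc-/-Puma-/- (SD, n = 3), beside 5.53 ± 0.870 in Puma-/- (n = 4), 18.0 ± 7.31 in WT (n = 3) and 17.0 ± 4.48 in G3 mTerc-/-Puma+/+ (n = 4). By the quasi-likelihood test of edgeR, adjusted over all genes by Benjamini and Hochberg, Bbc3 was lower in Puma-/- than in WT (log2 fold change -1.70, adjusted p = 0.0276), and higher in those libraries than in Puma-/- (1.48, SE 0.266, adjusted p = 0.0345). Neither call held with limma-voom, a replicate block or a covariate for Xist. The sex of the cells also differed, with Ddx3y, a Y-linked gene, at 0.0310 ± 0.0119 normalized CPM in Puma-/- (n = 4) and at 46.2 ± 2.40 in G3 mTerc-/-Puma+/+ (n = 4), and for these genotypes sex and genotype cannot be told apart. In the libraries labelled G3 mTerc-/-Puma-/- Ddx3y was at 2.88, 46.0 and 4.27. Xist, which is expressed from an inactive X chromosome, was at 663, 0.388 and 446 there. It was at 40.4, 0.177, 89 and 50.8 in G3 mTerc-/-Puma+/+, beside Ddx3y, and at 466 to 868 in Puma-/-. Both genes were present in some libraries, such as WT replicate 1 with Xist at 418 and Ddx3y at 21.3, so that every comparison here carries differences in the sex of the cells. All 10 markers of stem and early progenitor cells were detected in every library, and their summed level lay between 415 and 551 normalized CPM, while markers of mature cells were present too, with 365 to 3650 for 10 neutrophil and 249 to 544 for 10 erythroid genes. Nothing in the labels says that replicates came from separate animals, so that p-values measure the spread between these samples.

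None of the receptors passed the test in any comparison. The count was 0 of 9 in each of 7 comparisons, at an adjusted p under 0.05 from that edgeR test, with 14 and with 15 libraries, and also with DESeq2 and limma-voom. Few genes passed anywhere: 0.079% of all genes tested for Puma-/- against WT, 0.0369% for G3 mTerc-/-Puma+/+ against WT, 0.0632% for G3 mTerc-/-Puma-/- against WT, 0.801% for G3 mTerc-/-Puma+/+ against Puma-/-, 0.306% for G3 mTerc-/-Puma-/- against Puma-/-, 0.0738% for G3 mTerc-/-Puma-/- against G3 mTerc-/-Puma+/+, and 0.0527% for the interaction, the difference between the contrasts of the Puma labels within mTerc-/- and within telomerase-proficient libraries. A count of 0 among 9 genes is therefore near this background. At an unadjusted p under 0.05, 2 receptors were counted for G3 mTerc-/-Puma+/+ against Puma-/-, where 17.1% of all genes were. For G3 mTerc-/-Puma-/- the count was 1 against Puma-/- (8.42% of all genes), 1 against G3 mTerc-/-Puma+/+ (6.22%) and 0 against WT (5.45%). The interaction gave 1 receptor (4.93%), and 0 were counted for Puma-/- (10.1%) and for G3 mTerc-/-Puma+/+ (3.86%) against WT. Libraries of the compared groups did not overlap for 1 receptor in Puma-/- against WT (9.7% of all genes), 0 in G3 mTerc-/-Puma+/+ against WT (4.07%), 1 in G3 mTerc-/-Puma-/- against WT (8.51%), 1 in G3 mTerc-/-Puma+/+ against Puma-/- (10.8%), 1 in G3 mTerc-/-Puma-/- against Puma-/- (9.57%) and 0 in G3 mTerc-/-Puma-/- against G3 mTerc-/-Puma+/+ (5.56%). With 9 members, counts of 0 to 2 are close to these shares. In bulk RNA, fewer cells that carry a receptor and less of its RNA per cell cannot be told apart.

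**Figure D1:**
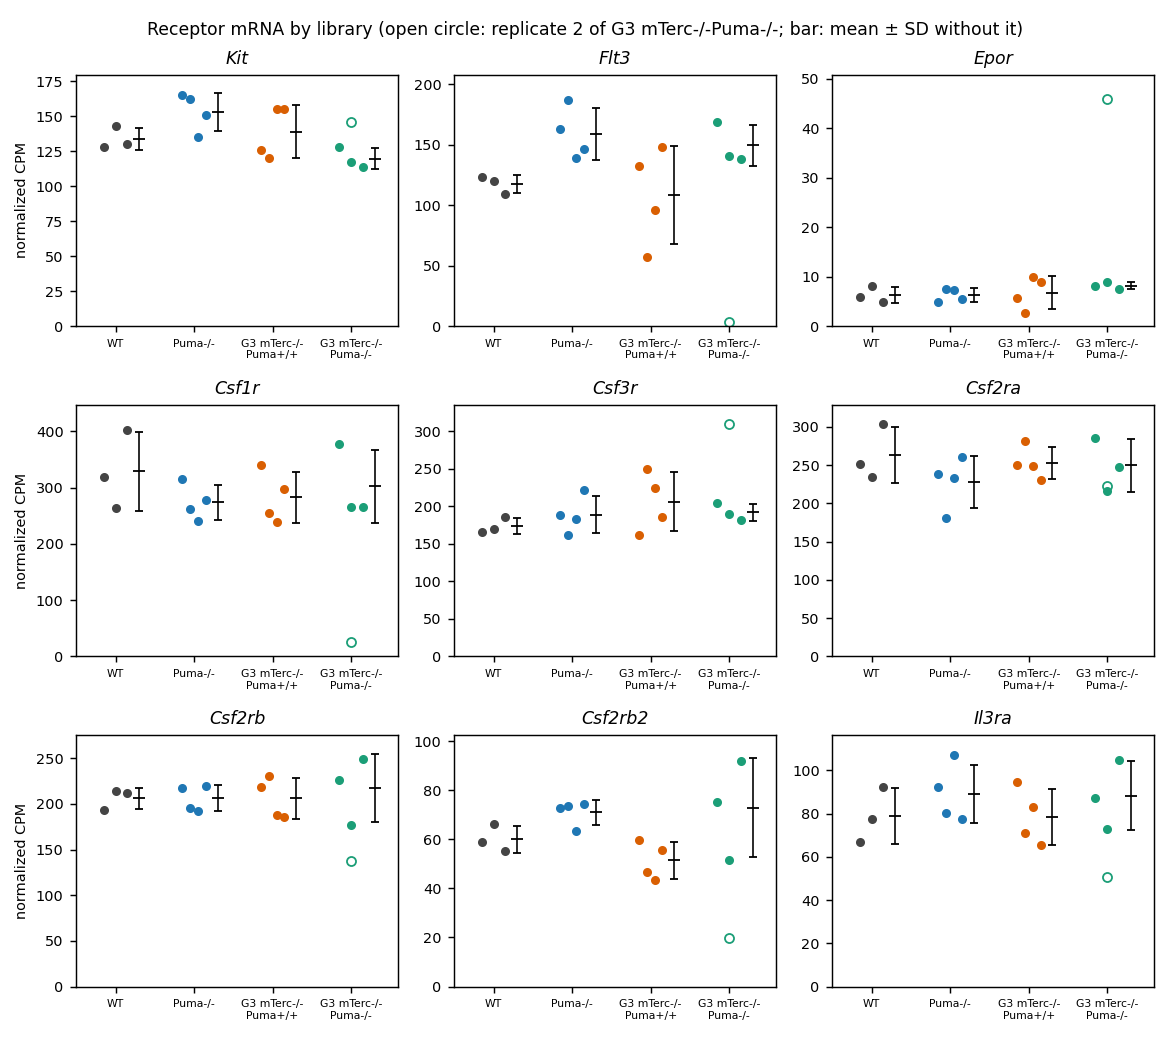
Level of each of the 9 receptors in every library (y axis, normalized CPM) by genotype (x axis), with filled points for the 14 libraries compared, an open circle for replicate 2 of G3 mTerc-/-Puma-/-, and bars for the mean and SD without that library. The genotypes overlap for most receptors, and the open circle lies far from the filled points for Flt3, Csf1r and Epor.

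Kit, the receptor of stem cell factor, lies on chromosome 5 of GRCm38 from 75574916 to 75656722. In WT its level was 128, 143 and 130 normalized CPM. The Puma-/- libraries had 165, 162, 135 and 151, and those of G3 mTerc-/-Puma+/+ 126, 120, 155 and 155. The libraries labelled G3 mTerc-/-Puma-/- had 128, 117 and 114, all below every Puma-/- library. Their log2 fold change against Puma-/- was -0.36 (SE 0.104, 95% CI -0.58 to -0.13), with an adjusted p of 0.249 from edgeR's test, which did not pass. An exact two-sided permutation test gave p = 0.0571. Against WT the same libraries differed by -0.15 on the log2 scale (95% CI -0.39 to 0.08), and the interaction was -0.42 (SE 0.146, 95% CI -0.73 to -0.10, adjusted p = 0.832 by edgeR). With 15 libraries the first of these values was -0.28 and the groups overlapped, since replicate 2 had 146. Several marker lists differed beside Kit in the comparison with Puma-/-. The summed level of 7 megakaryocyte genes was 369 to 605 normalized CPM in Puma-/- and 136 to 189 in the libraries labelled G3 mTerc-/-Puma-/-, where 5 of 7 passed the test as lower, and that of 9 mast cell and basophil genes was 2590 to 4080 and 1440 to 2790, respectively, ranges that overlap, where 0 of 9 passed and the tryptase gene Tpsb2 was at 0 in 2 of the libraries. All 10 erythroid and all 10 neutrophil markers had estimates above 0 (medians 1.155 and 1.195 on the log2 scale, 7 and 5 at an unadjusted p under 0.05), and of 10 stem and early progenitor markers 7 were below 0 (median -0.557, 5 at an unadjusted p under 0.05), with 0 past the test in each of these 3 lists. Of 8 B lymphoid markers 1 passed as higher. Estimates were above 0 for 9 of 10 monocyte and macrophage, 5 of 5 plasmacytoid dendritic and 7 of 7 stroma markers. They were above 0 for 7 of 8 T and NK, 3 of 5 primary granule and 1 of 5 eosinophil markers, and no gene of these 6 lists passed. Across the 14 libraries Pearson's r of Kit was 0.63 with the megakaryocyte sum, -0.63 with the neutrophil sum, -0.59 with the monocyte and macrophage sum and 0.57 with the eosinophil sum (n = 14, a description of libraries that share genotypes), and the part of any of these cells in the Kit values was not tested.

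Flt3, the receptor of FLT3 ligand, lies on the minus strand of chromosome 5 from 147330741 to 147400489. WT libraries were close together, at 123, 120 and 109 normalized CPM. The 4 Puma-/- libraries lay higher without overlap, at 163, 187, 139 and 146. The G3 mTerc-/-Puma+/+ libraries spread most, at 132, 57.2, 96.3 and 148. Those labelled G3 mTerc-/-Puma-/- had 169, 141 and 138, above every WT library. None of these separations passed the test: the log2 fold change of Puma-/- against WT was 0.43 (95% CI -0.07 to 0.94, adjusted p = 0.546 by edgeR), that of G3 mTerc-/-Puma+/+ against Puma-/- was -0.55 (SE 0.217, 95% CI -1.02 to -0.08, adjusted p = 0.22 by edgeR), and that of G3 mTerc-/-Puma-/- against G3 mTerc-/-Puma+/+ was 0.46 (95% CI -0.04 to 0.96, adjusted p = 0.828 by edgeR). The last 2 values rest in part on G3 mTerc-/-Puma+/+ replicate 2, the library with 57.2, and were -0.33 and 0.24 without it. With 15 libraries the last was 0.06, and the value of G3 mTerc-/-Puma-/- against WT turned from 0.34 to -0.06 with overlap. In the 5 genes listed as plasmacytoid dendritic markers, a lineage that depends on Flt3, the summed level was 213 to 243 normalized CPM in Puma-/-, 141 to 207 in G3 mTerc-/-Puma+/+ and 275 to 305 in the libraries labelled G3 mTerc-/-Puma-/-. None of those 5 passed in these comparisons, and their r with Flt3 was 0.73 (n = 14). Of 8 B lymphoid markers 1 passed as lower in G3 mTerc-/-Puma+/+ against Puma-/- (median log2 fold change -1.055), and 2 passed as higher in G3 mTerc-/-Puma-/- against G3 mTerc-/-Puma+/+ (median 2.106). Their summed level, mostly that of Ighm, was 2040 to 7800 normalized CPM in WT, 2920 to 5100 in Puma-/-, 572 to 1400 in G3 mTerc-/-Puma+/+ and 1290 to 4830 in the libraries labelled G3 mTerc-/-Puma-/-, with r = 0.38 to Flt3. The part of either lineage in the Flt3 values was not tested.

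Csf1r, the receptor of M-CSF and IL-34 on monocytic cells, lies on chromosome 18 from 61100598 to 61132149. Its 3 WT libraries had 319, 264 and 403 normalized CPM. In Puma-/- the values were 315, 261, 241 and 277, and in G3 mTerc-/-Puma+/+ they were 340, 255, 239 and 298. The libraries labelled G3 mTerc-/-Puma-/- had 377, 265 and 265. The 4 ranges overlapped throughout, and the largest difference, -0.27 for Puma-/- against WT, had a 95% CI of -0.63 to 0.10 on the log2 scale. G3 mTerc-/-Puma-/- against G3 mTerc-/-Puma+/+ gave 0.10 (SE 0.169, adjusted p = 0.984 by edgeR). Genes of the other strand overlap 873 of its exon bases, and the strand setting of the counting is not given in the sources used here, so that their reads may be included. The level of Csf1r followed the summed level of 10 monocyte and macrophage markers with r = 0.64 (n = 14), and that of Csf2ra followed it with r = 0.71.

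**Figure D2:**
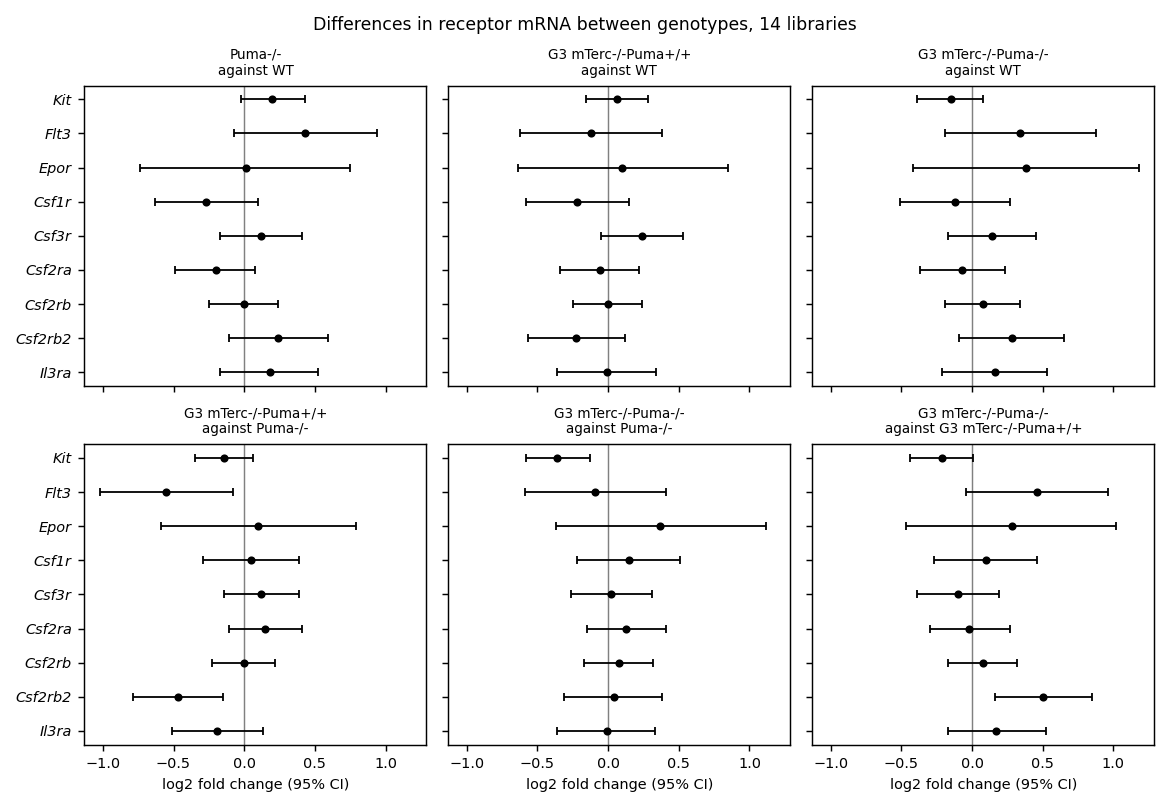
Log2 fold change (x axis) of each receptor (y axis) in 6 pairwise comparisons of genotypes, with points for the estimate of the fit of 14 libraries and bars for its 95% CI. Most intervals include 0, and the intervals that exclude it, those of Kit, Flt3 and Csf2rb2, did not pass after adjustment over all genes.

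Epor, the erythropoietin receptor, lies on the minus strand of chromosome 9 from 21958897 to 21963506. It was low throughout, with 5.93, 8.11 and 4.83 normalized CPM in WT. Puma-/- had 4.92, 7.58, 7.37 and 5.39, and G3 mTerc-/-Puma+/+ had 5.75, 2.56, 9.86 and 8.87. The 3 libraries labelled G3 mTerc-/-Puma-/- had 8.12, 8.90 and 7.55, within the range of G3 mTerc-/-Puma+/+. Across the 14 libraries Pearson's r of Epor was 0.42 with the summed erythroid markers (Spearman's rho 0.65) and 0.58 with the stem and early progenitor sum. The largest log2 fold change among the pairwise comparisons was 0.38 for G3 mTerc-/-Puma-/- against WT (95% CI -0.42 to 1.18), the widest interval of the 9 receptors. Replicate 2 of that genotype had 45.8, and with it the log2 fold changes were 1.48 against WT, 1.48 against Puma-/- and 1.38 against G3 mTerc-/-Puma+/+ (adjusted p = 0.483, 0.493 and 0.41 by edgeR), none of which passed.

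The promoter of Epor is shown because the receptor's level in that 1 library went with erythroid genes, many of which are known targets of GATA1. It is the 250 bases before the RefSeq start, chr9:21963577-21963826 on the minus strand of GRCm38.p6, printed 5′ to 3′ with capitals for matches to the letters AGATAA, known from sites of the GATA1 family, and TGTGGT, known from sites of RUNX proteins, on either strand.
Epor promoter: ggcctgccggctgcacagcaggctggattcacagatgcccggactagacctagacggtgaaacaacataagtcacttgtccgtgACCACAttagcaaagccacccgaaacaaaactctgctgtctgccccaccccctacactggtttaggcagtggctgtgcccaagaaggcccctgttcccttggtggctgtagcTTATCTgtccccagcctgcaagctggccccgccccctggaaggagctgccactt
The AGATAA match begins 54 bases before the start, in the reverse orientation, and the TGTGGT match 166 bases before it, also reversed. The same letters occurred in 9.99% and 14% of all 32851 promoters of this length. Of the receptors, 7 had an entry in the RefSeq table, with 8 starts in all. Beside Epor, none of these 7 genes held AGATAA or TGTGGT, and GAGGAA, letters bound by PU.1 and other ETS factors, occurred in those of Kit, Csf3r, Csf2ra and Csf2rb2 and in 23.3% of all promoters. CAGCTG, an E-box searched likewise, occurred in none of them and in 13% of all promoters. A match is a description of letters and no evidence of binding. In replicate 2 of G3 mTerc-/-Puma-/- the neutrophil and primary granule sums were also above those of all other libraries. The part of GATA1 in the Epor level was not tested.

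Csf3r, the receptor of G-CSF on granulocytic progenitors and neutrophils, lies on chromosome 4 from 126024550 to 126044440. Levels in WT were 166, 170 and 186 normalized CPM. They were 188, 162, 183 and 222 in Puma-/-, and 162, 250, 225 and 186 in G3 mTerc-/-Puma+/+. The libraries labelled G3 mTerc-/-Puma-/- lay within that range, at 204, 190 and 182. G3 mTerc-/-Puma+/+ replicate 2, the library lowest in Flt3 and Epor, was the highest of the 14 for Csf3r. The largest difference, 0.24 for G3 mTerc-/-Puma+/+ against WT, had a 95% CI of -0.05 to 0.53 on the log2 scale, and G3 mTerc-/-Puma-/- against G3 mTerc-/-Puma+/+ gave -0.10 (SE 0.135, adjusted p = 0.976 by edgeR). The summed level of 5 primary granule genes of myeloid progenitors, such as Mpo and Elane, followed Csf3r with r = 0.63 and Flt3 with r = -0.68 (n = 14).

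The GM-CSF and IL-3 receptors consist of 4 of the 9 genes. Csf2ra, the GM-CSF-binding chain, lies on the minus strand of chromosome 19 from 61223957 to 61228429. It had 251, 234 and 304 normalized CPM in WT, and 238, 181, 233 and 261 in Puma-/-. In G3 mTerc-/-Puma+/+ the values were 250, 281, 249 and 230, and replicates 1, 3 and 4 labelled G3 mTerc-/-Puma-/- had 285, 216 and 248. These groups overlapped in all comparisons, and no difference exceeded 0.20 on the log2 scale. For Il3ra, the IL-3-binding chain on chromosome 14 from 14346275 to 14356011, WT libraries had 66.8, 77.6 and 92.2, Puma-/- 92.1, 80.1, 107 and 77.4, G3 mTerc-/-Puma+/+ 94.4, 70.8, 83 and 65.3, and those labelled G3 mTerc-/-Puma-/- 87, 73 and 105. Here too all groups overlapped, and the log2 fold change of G3 mTerc-/-Puma-/- against G3 mTerc-/-Puma+/+ was 0.17 (95% CI -0.17 to 0.52), beside 0.01 with 15 libraries and 0.029 without G3 mTerc-/-Puma-/- replicate 4. That of Csf2ra was -0.02 (95% CI -0.30 to 0.27).

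Csf2rb, the common beta chain of the GM-CSF, IL-3 and IL-5 receptors, lies on chromosome 15 from 78325752 to 78353847. It was the most even receptor across the 14 libraries, with a CV (SD over mean) of 9.84%. WT had 193, 214 and 212 normalized CPM, Puma-/- 217, 196, 192 and 220, G3 mTerc-/-Puma+/+ 219, 231, 188 and 186, and the libraries labelled G3 mTerc-/-Puma-/- 226, 177 and 249. Its log2 fold changes were between 0 and 0.08 in size, and the 95% CI of G3 mTerc-/-Puma-/- against G3 mTerc-/-Puma+/+ was -0.17 to 0.32.

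Csf2rb2, the beta chain that in the mouse serves IL-3 alone, lies beside Csf2rb on the opposite strand of chromosome 15, from 78282507 to 78305721. WT libraries had 59, 66.1 and 55.3 normalized CPM. Puma-/- had 72.8, 73.8, 63.3 and 74.3, and every G3 mTerc-/-Puma+/+ library was below these, at 59.7, 46.6, 43.5 and 55.8. The libraries labelled G3 mTerc-/-Puma-/- were spread, at 75.1, 51.6 and 91.9, and overlapped all other groups. G3 mTerc-/-Puma+/+ against Puma-/- gave -0.47 on the log2 scale (SE 0.149, 95% CI -0.79 to -0.15), and the exact two-sided permutation test over 70 splits gave p = 0.0286, the smallest that 4 against 4 libraries allow. After adjustment over all genes it did not pass (adjusted p = 0.141 by edgeR, 0.062 by DESeq2 and 0.565 with 15 libraries), and 10.8% of all genes had no overlap in that comparison. Compared with G3 mTerc-/-Puma+/+, the libraries labelled G3 mTerc-/-Puma-/- differed by 0.50 on the log2 scale (SE 0.160, 95% CI 0.16 to 0.85, adjusted p = 0.452 by edgeR), with overlapping libraries. It was 0.30 without G3 mTerc-/-Puma-/- replicate 4 and 0.21 with 15 libraries. The 5 plasmacytoid dendritic markers described with Flt3 also followed Csf2rb2 (r = 0.74, n = 14), and their part in these values was not tested.

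Because the 2 beta chains are close copies, their coding sequences were compared to see how well reads can be assigned. Of 2626 aligned coding positions, 2504 were identical (95.4%), the longest identical run was 242 bases, and 6.96% of the windows of 100 bases in the longest Csf2rb transcript also occurred in Csf2rb2. STAR's gene counts take uniquely mapped reads only, and how many reads of either gene such stretches cost was not tested. The window of 120 bases within 1 exon in which the genes differed most is printed 5′ to 3′ with the 16 differing positions in capitals. It spans chr15:78338867-78338986 on the plus strand for Csf2rb and chr15:78294345-78294464 on the minus strand for Csf2rb2 in GRCm38.
Csf2rb: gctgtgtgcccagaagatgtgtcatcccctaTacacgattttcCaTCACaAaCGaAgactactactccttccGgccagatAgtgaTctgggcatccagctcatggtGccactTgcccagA
Csf2rb2: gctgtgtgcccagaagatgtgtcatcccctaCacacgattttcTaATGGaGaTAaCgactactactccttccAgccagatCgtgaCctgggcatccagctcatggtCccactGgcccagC
At the other end, a window of 120 bases was identical in both genes. It spans chr15:78348577-78348696 on the plus strand for Csf2rb and chr15:78284752-78284871 on the minus strand for Csf2rb2.
Csf2rb and Csf2rb2: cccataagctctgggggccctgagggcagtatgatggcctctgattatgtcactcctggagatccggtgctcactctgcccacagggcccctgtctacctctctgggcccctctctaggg
Each gene also shares 62 exon bases with a gene on its own strand.

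Set against its neighbour, Csf2rb2 per kilobase of exon was 47%, 47.4% and 40% of Csf2rb in WT. In Puma-/- the shares were 51.5%, 57.9%, 50.6% and 51.8%, all above WT and above G3 mTerc-/-Puma+/+, which had 41.8%, 30.9%, 35.6% and 46.1%. The libraries labelled G3 mTerc-/-Puma-/- had 51%, 44.7% and 56.6%. The means were 44.8% ± 4.15 (SD, n = 3), 52.9% ± 3.35 (n = 4), 38.6% ± 6.69 (n = 4) and 50.8% ± 5.93 (n = 3), given as a description with no test. These shares depend on the exon length used for Csf2rb, which has 7277 bases of merged exons and 4900 in its longest transcript. Csf2rb2 has 4740 by either measure, so that with the longest transcript every share would be lower by the same factor. A ratio within a library shows that the 2 genes were unequal and does not say which of them differed between genotypes.

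**Figure D3:**
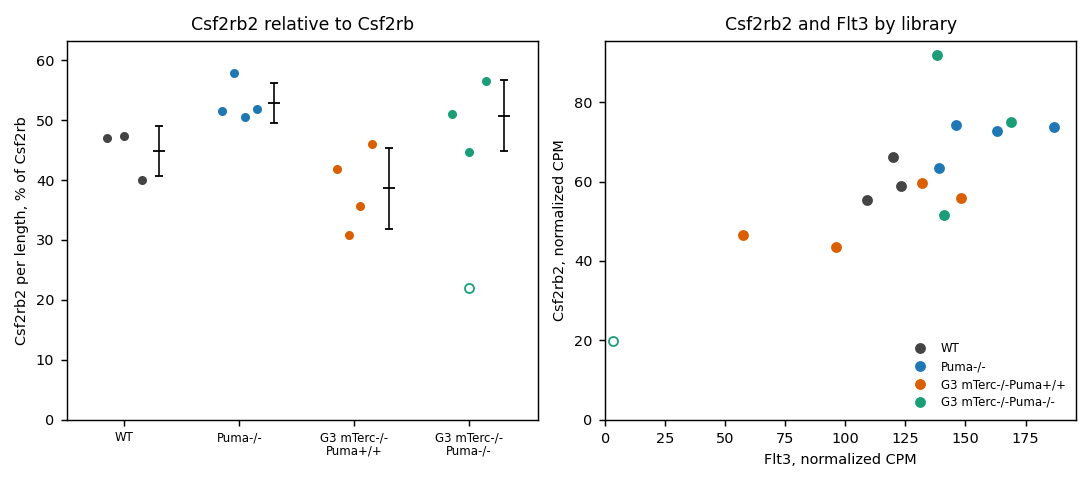
Left, Csf2rb2 per length as a percentage of Csf2rb (y axis) by genotype, with points for libraries and bars for the mean and SD of the 14 libraries. Right, Csf2rb2 against Flt3 in normalized CPM, with 1 point per library coloured by genotype and an open circle for replicate 2 of G3 mTerc-/-Puma-/-, which lies lowest on both axes.

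The receptors differed far more from each other than between genotypes. In RPKM, which divides normalized CPM by the exon length in kilobases (14 libraries), Csf2ra was highest at 86.1 ± 10.6 (SD) and Epor lowest at 3.44 ± 1.01. Csf3r (53.0 ± 7.15) and Csf1r (51.0 ± 8.76) came next and did not differ beyond their spread, with Csf3r higher in 7 of 14 libraries. Csf2rb (28.7 ± 2.82) and Il3ra (28.2 ± 4.45) were likewise not separated, with Csf2rb higher in 6 of 14 libraries. Flt3 followed at 21.6 ± 5.22, Kit at 15.5 ± 1.93 and Csf2rb2 at 13.4 ± 2.77, and each pair of neighbours in this stretch kept its order in 12 of 14 libraries. The exceptions were not spread evenly. Csf2rb2 (15.4 ± 4.27) was above Kit (13.5 ± 0.808) in 2 of 3 libraries labelled G3 mTerc-/-Puma-/-. Flt3 was below Kit in 2 of 4 G3 mTerc-/-Puma+/+ libraries, at 9.27 and 15.6 RPKM beside 13.5 and 17.4 for Kit. The ranges of Csf1r and Csf2rb did not overlap, and neither did those of Csf2rb2 and Epor. These levels depend on the exon length used, and with the longest transcript in place of all exons the levels of Kit and Flt3 were 26.3 and 33.8 RPKM.

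**Figure D4:**
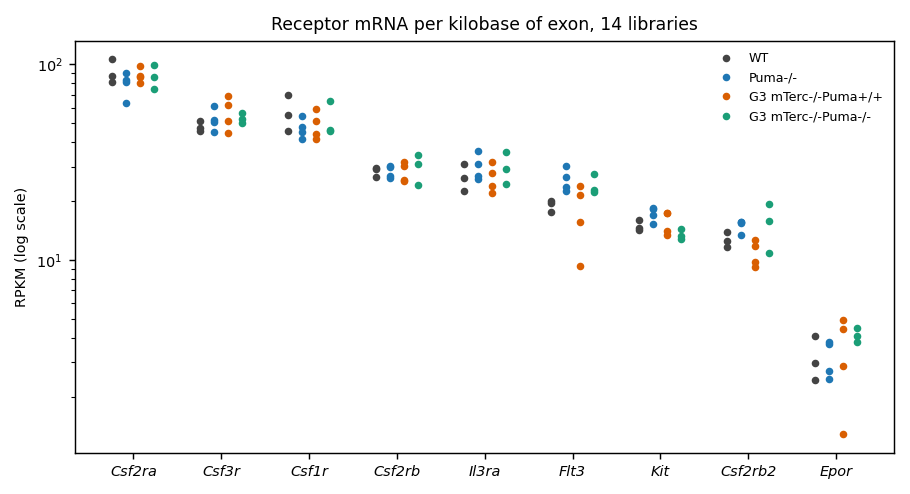
Level per kilobase of exon (y axis, RPKM on a log scale) of the 9 receptors (x axis, from highest to lowest mean), with 1 point per library for 14 libraries, coloured by genotype. Csf2ra lies at the top and Epor at the bottom in every genotype.

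Replicate 2 of G3 mTerc-/-Puma-/- had another receptor profile. Flt3 was at 3.45 normalized CPM, where the other 14 libraries ran from 57.2 to 187 with a median 40.1 times as high. Csf1r was at 26.0 beside 239 to 403 (a median 10.4 times as high). The chains of the IL-3 receptor were below all others as well, with Csf2rb2 at 19.7 beside 43.5 to 91.9, Csf2rb at 138 beside 177 to 249, and Il3ra at 50.9 beside 65.3 to 107. Epor, at 45.8, was 6.14 times the median of the other libraries, and Csf3r, at 309, was 1.66 times theirs. Kit (146) and Csf2ra (222) lay inside the range of the others. Beside these values, the summed level of 10 erythroid markers was 2320 normalized CPM in this library and at most 544 elsewhere, that of 10 neutrophil markers 4810 and at most 3650, that of 10 monocyte and macrophage markers 1320 and at least 1830, and that of 5 plasmacytoid dendritic markers 99.3 and at least 141. The sums of 5 primary granule genes (27500, at most 26100 elsewhere) and of 8 T and NK cell genes (674, at most 562) were also above the other libraries. Of the T and NK cell genes only Nkg7 (565, at most 464) was above, and all others lay inside the range of the other libraries. Of the primary granule genes only Prtn3 (4840, at most 5830) lay inside that range. The monocyte and macrophage genes were split. Ccr2, Cx3cr1, Fcgr1, Ms4a6c, F13a1 and Adgre1 lay below the other libraries, Ly6c2, C1qa and C1qb inside their range, and Vcam1 above it. Among the neutrophil genes Camp, Mmp8 and Ly6g lay inside the range of the other libraries and the rest above it. Among the plasmacytoid dendritic genes Ccr9 lay inside and the rest below. The sum of 10 stem and early progenitor markers was 268 and at least 415 elsewhere, which came from Cd34 (86.1, at least 152 elsewhere) and Cd48 (72.6, at least 179), while 6 of the other 8 lay inside the range of the other libraries and Procr and Ly6a above it. The sum of 9 mast cell and basophil genes (1480) lay inside the range of the other libraries (1390 to 4080), but its genes were split. Cma1 (160, at most 10.5 elsewhere) and Tpsb2 (169, at most 11.6) lay above the other libraries. Mcpt8 (247, at least 369), Prss34 (458, at least 681) and Ms4a2 (28.5, at least 33.2) lay below them. The part of other cells in this profile was not tested.

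**Figure D5:**
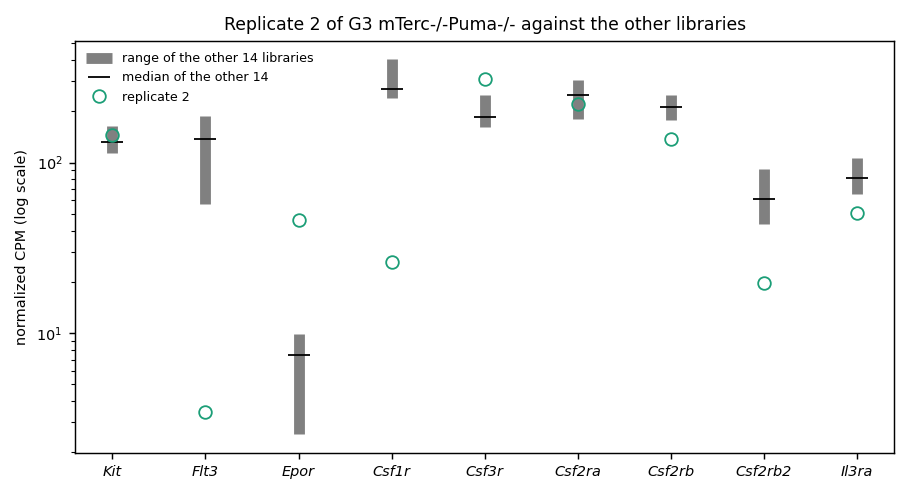
Level of each receptor (y axis, normalized CPM on a log scale) in replicate 2 of G3 mTerc-/-Puma-/- (open circles), with grey bars for the range and black lines for the median of the other 14 libraries. Flt3 and Csf1r lie far below the bars, Epor lies above its bar, and Kit and Csf2ra lie inside theirs.

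Of 10 listed ligands of these and related receptors 4 passed the filter on low counts, and Flt3l, the ligand of Flt3, was not analysed here. Csf3, Il5 and Thpo did not pass, with at most 14 counts in a library, and Epo and Il3 had 0 counts in all 15 libraries, which allows at most 0.0296 normalized CPM (3 counts in the library with the lowest effective size, counting error only). The gene of M-CSF, Csf1, was the only ligand that passed the test in any comparison of 14 libraries. It had 52.2, 55.7 and 39.9 normalized CPM in WT, 75.8, 66.7, 57.5 and 62 in Puma-/-, 41.6, 37, 35.1 and 44.9 in G3 mTerc-/-Puma+/+. Libraries labelled G3 mTerc-/-Puma-/- had 53.6, 55.8 and 77.8. Csf1 was lower in G3 mTerc-/-Puma+/+ than in Puma-/- by -0.73 on the log2 scale (SE 0.139, adjusted p = 0.0429 by edgeR) without overlap, a call that was lost with 15 libraries (adjusted p = 0.0792 by edgeR) and with a covariate for Xist (adjusted p = 0.225 by edgeR). In the libraries labelled G3 mTerc-/-Puma-/- every value was above every G3 mTerc-/-Puma+/+ library, and the difference of 0.65 on the log2 scale did not pass (adjusted p = 0.159 by edgeR). Il34, the other ligand of Csf1r, had 3.90, 6.99 and 2.93 normalized CPM in those libraries and 1.34 to 2.54 in G3 mTerc-/-Puma+/+, which gave 1.43 on the log2 scale (adjusted p = 0.217 by edgeR) and passed with DESeq2 alone. Kitl, the gene of stem cell factor, had a log2 fold change of 0.53 in the same comparison (adjusted p = 0.882 by edgeR), which was 0.06 without G3 mTerc-/-Puma-/- replicate 3 and 1.34 with 15 libraries.

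Among 18 other cytokine receptors of blood progenitors, all tested, 1 passed, in comparisons where 0.801% and 0.306% of all genes passed. Il5ra, the IL-5-binding chain that pairs with Csf2rb, had 0.664, 0.721, 0.654 and 0.901 normalized CPM in Puma-/-, beside 0.326, 0.344 and 0.292 in WT. It had 0.309, 0.246, 0.452 and 0.355 in G3 mTerc-/-Puma+/+ and 0.220, 0.247 and 0.173 in replicates 1, 3 and 4 labelled G3 mTerc-/-Puma-/-. Against Puma-/- it was lower in both, with log2 fold changes of -1.11 (SE 0.218, adjusted p = 0.0429 by edgeR) and -1.78 (SE 0.247, adjusted p = 0.00594 by edgeR), respectively, and no overlap. Both calls were lost with 15 libraries (adjusted p = 0.238 and 0.331 by edgeR), where the first log2 fold change was still -1.11 without overlap and the second was -1.17 with overlap, replicate 2 being at 0.671. With a covariate for Xist 1 of these calls was lost too, and sex and genotype cannot be told apart between Puma-/- and G3 mTerc-/-Puma+/+. These levels rest on 22 to 99 counts per library. The summed level of 5 eosinophil markers, the cells known for this receptor, was 323 to 572 normalized CPM in Puma-/-, 217 to 346 in G3 mTerc-/-Puma+/+ and 175 to 323 in the libraries labelled G3 mTerc-/-Puma-/-, with 0 of 5 past the test, and their part in the Il5ra values was not tested. The median log2 fold change of the 18 genes in G3 mTerc-/-Puma+/+ against Puma-/- was -0.27, beside 0 over all genes tested. At an unadjusted p under 0.05 by edgeR, 8 of the 18 were lower and 0 higher there, beside 17.1% of all genes. In Puma-/- against WT 6 were higher and 0 lower (10.1%). In G3 mTerc-/-Puma-/- against Puma-/- 5 were lower and 0 higher (8.42%). With 15 libraries these counts were 4 lower, 4 higher and 3 lower, respectively. Fewer were counted in the remaining comparisons of 14 libraries.

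Downstream of the receptors, 0 of 25 signal transduction genes, 0 of 19 feedback genes and 0 of 16 transcription factors of receptor genes passed in any comparison with 14 libraries (edgeR). At an unadjusted p under 0.05, the comparison of G3 mTerc-/-Puma-/- with G3 mTerc-/-Puma+/+ counted 0 of 25, 2 of 19 and 0 of 16, and that of G3 mTerc-/-Puma+/+ with Puma-/- counted 3, 2 and 4, beside 6.22% and 17.1% of all genes, respectively. Nras, a small GTPase that relays receptor signals, differed by -0.08 on the log2 scale in the first of these comparisons (adjusted p = 0.918 by edgeR). Dusp6, a phosphatase that limits growth factor signalling, and Spry1, an inhibitor of receptor tyrosine kinase signalling, were the 2 counted feedback genes, with 0.38 (SE 0.137) and 0.63 (SE 0.244), and adjusted p of 0.592 and 0.661 by edgeR. Of the transcription factors, Ets1 and Hoxa9 had the lowest p in that comparison, with 0.33 (SE 0.190) and 0.29 (SE 0.187) and adjusted p of 0.871 and 0.905 by edgeR.

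Likeness was measured by Pearson's r of log2 CPM over the 14 libraries, which share genotypes, so that r describes these libraries. Within the receptors, Flt3 and Csf2rb2 were the most alike pair (r = 0.67, Spearman's rho = 0.63). Flt3 and Epor had r = 0.59 but rho = 0.24, since G3 mTerc-/-Puma+/+ replicate 2 was lowest in both. The 3 genes most like each receptor were sought among 11846 protein-coding genes of at least 1 normalized CPM. For Kit these were Zfp114 (r = 0.92), Aldh6a1 (0.92) and Zfp704 (0.90), and for Flt3 they were Rgl1 (0.97), Jakmip1 (0.96) and Ptk2 (0.94). Epor was most like Atp1b2 (0.96), Abcb4 (0.96) and Ces2g (0.92), which in replicate 2 of G3 mTerc-/-Puma-/- also lay above all other libraries, at 35.3, 48.8 and 107 normalized CPM. Csf1r was most like Sgpl1 (0.95), Tor1aip1 (0.94) and Il6ra (0.94), all of which lay below the other libraries there, at 38.7, 57.3 and 31.7. The genes most like Flt3 did not follow it there, since Rgl1 (8.34), Jakmip1 (10) and Ptk2 (6.05) lay inside the range of the other libraries, and their r with 15 libraries was 0.61, 0.36 and 0.33. Csf3r went with Abca13 (0.87), Mcm3ap (0.84) and Slco4a1 (0.84), and Csf2ra with Tom1 (0.94), Eloa (0.92) and C1rl (0.92). The IL-3 receptor chains gave Bcl3 (0.87), Prpf6 (0.86) and Lrp10 (0.86) for Csf2rb, Castor1 (0.92), Csf1 (0.86) and Thtpa (0.84) for Csf2rb2 (r = -0.05, 0.19 and 0.68 with 15 libraries), and Fermt3 (0.83), Lrrc29 (0.83) and Csnk1g2 (0.81) for Il3ra.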

How the data were processed

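RNA of lin- bone marrow cells was analysed in 15 libraries of 4 genotypes, grouped by their titles. The authors made TruSeq poly(A) libraries, trimmed reads with Trimmomatic 0.38 and counted them per gene with STAR 2.5.2b on GRCm38 (mm10), and these raw counts are what was deposited. The annotation release and the strand setting are not given in the sources used here. Identifiers were named with GENCODE vM21, and 563 without a symbol held 0.0643% of the counts and stayed in the fits.

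Tests used edgeR 4.0.16 in R 4.3.3 (TMM factors, filterByExpr, quasi-likelihood test in 1 fit of 4 genotypes, 7 comparisons, Benjamini-Hochberg adjustment over 18983 genes, threshold 0.05), on the 14 libraries drawn in the heatmaps of the study and on all 15. Alternatives were no TMM factors, no or a stricter filter, the replicate number as a block, compared genotypes alone, a covariate for Xist, DESeq2 1.42.0, limma-voom (limma 3.58.1) and leaving out each library. Levels were scaled with TMM factors of all 15 libraries, log2 CPM used a prior count of 2, and RPKM used merged exon lengths. Confidence intervals are 95%. Single genes were also compared by exact two-sided permutation of the difference of means. The common biological coefficient of variation was 0.251. Chi-square per gene between libraries of a genotype was 38.3 to 706, so that no library was a repeat of another of its genotype. Calculations were tested on simulated data. The receptors and lists were chosen with earlier results of these data known. Genes named outside the 9 receptors are the targeted and sex genes, list genes that passed or had the 2 lowest p-values, ligands of at least 1 normalized CPM, and the 3 most like genes. The values of 1 gene that this rule names are not reported here. Epo, Il3 and the marker lists named beside a result were added to these after values were seen. Sequences come from RefSeq (GRCm38.p6) and GENCODE vM21.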

Additional observations from a re-analysis of the deposited data

Results flagged for a closer look

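Dixon's test compares the gap between an extreme sample and its nearest neighbour with the range of a group of 4. It was applied to each receptor in the genotypes with 4 libraries, which leaves out WT. Chance alone marks about 1 in 20 such groups. This rate does not hold for replicate 2 of G3 mTerc-/-Puma-/-, which is included here and had already been set apart. Epor in G3 mTerc-/-Puma-/- replicate 2 was at 45.8 normalized CPM, with the nearest of the other 3 libraries at 8.90 (ratio 0.965). Csf3r in the same library was at 309, with the nearest at 204 (ratio 0.831). Csf2rb2 in Puma-/- replicate 3 was at 63.3 normalized CPM, below the other 3 Puma-/- libraries, of which the nearest was at 72.8 (ratio 0.861). That value still lay above every G3 mTerc-/-Puma+/+ library.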

How the results depend on the processing

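The count of receptors past the test was 0 in each comparison under every alternative run (7 comparisons, or the 6 pairwise ones where the compared genotypes were fitted alone), also when any of the 14 libraries was left out (0 to 0). The lowest adjusted p of a receptor was 0.062 for Csf2rb2 in G3 mTerc-/-Puma+/+ against Puma-/- with DESeq2, and 0.0925 with a replicate block. Replicate numbers did not pair the samples: r of same-numbered deviations was -0.25 to 0.18 over 18 pairs, with 3 over 0.1. Over all genes that comparison gave 152 calls, beside 43 with the block, 24 with 15 libraries, 18 with the Xist covariate and 996 with DESeq2. Small differences of G3 mTerc-/-Puma-/- against G3 mTerc-/-Puma+/+ turned in sign. With 15 libraries the log2 fold change was -0.28 for Csf1r, 0.11 for Csf3r and -0.06 for Csf2rb, and for Csf2ra it was 0.018 with library size alone and 0.00084 with the Xist covariate. Leaving out 1 library gave -0.095 to 0.20 for Csf1r, -0.19 to 0.0026 for Csf3r, -0.12 to 0.077 for Csf2ra and -0.031 to 0.21 for Csf2rb. With the longest transcript, levels per length were 26.3 RPKM for Kit, 33.8 for Flt3, 62.6 for Csf1r, 109 for Csf2ra, 42.6 for Csf2rb and 36.2 for Il3ra, since the merged exons of these genes are longer. With 15 libraries, r of Flt3 with Epor was -0.70 and with Csf2ra 0.06. The call of Csf1 was lost in 8 and that of Il5ra against Puma-/- in G3 mTerc-/-Puma+/+ in 10 of 14 fits without 1 library, and Il34 passed with DESeq2 alone (adjusted p = 0.00803). The Bbc3 call in the libraries labelled G3 mTerc-/-Puma-/- was lost in 7 of 14. Where no cause is named here, the cause was not tested. Depth is lowest for Epor among the receptors.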
